A study of Rattus norvegicus with 3 samples.

Results

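The genes described here encode the enzymes and partner proteins that turn procollagen into cross-linked fibrils, and were read in tendon stem/progenitor cells (TSPCs) grown from rat Achilles tendon at 1, 7 and 56 days of age (TSPCs-1d, TSPCs-7d and TSPCs-56d). There were 3 arrays, 1 per age, of the Affymetrix Rat Genome 230 2.0 type, on which each transcript is read by a group of short probes, the probe set, as a signal in linear intensity units. The cells had grown out of tendon pieces mixed from at least 2 animals, had been plated at very low density to form colonies, and were harvested at passage 2 from low glucose DMEM with 10% fetal bovine serum. The study used Sprague-Dawley rats, and no genotype or treatment separates the cultures, so age is the only labelled difference, and it cannot be told apart from the culture and the array that stand for it. In all, 10 genes were chosen by name with earlier results of these arrays known, among them the ratio of *PCOLCE2* between TSPCs-7d and TSPCs-1d, so every value below is a description and no test was made. All 10 were found, through 14 of the 20826 probe sets that the platform table ties to a single gene, and these stand among 14216 genes. Of the 10, 4 have 2 probe sets and 6 have 1. Where 3 signals are given without ages, they are in the order of 1, 7 and 56 days.

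Fibrillar collagen is made as procollagen, a chain with a propeptide at each end. Inside the cell, prolyl hydroxylases stabilise the triple helix, lysyl hydroxylases prepare the lysines that will later be cross-linked, and a collagen-specific chaperone escorts the folded molecule through the endoplasmic reticulum. Outside the cell, proteases cut off the propeptides so that fibrils can assemble, and lysyl oxidases, which need copper, start the covalent cross-links that give a tendon its strength.

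It was found that 1 of the 10 genes differed by more than 2-fold between ages, while the signals of the other 9 stayed within 1.49-fold of each other over the 3 arrays in each of their 13 probe sets. The exception was *PCOLCE2*, which encodes an enhancer of procollagen C-proteinase, a secreted protein that speeds the removal of the C-propeptide. With 2-fold as the cutoff of the study's methods, and the brightest probe set standing for each gene, 1 of 10 was higher and 0 were lower for TSPCs-7d over TSPCs-1d, against 1.87% of all genes higher and 1.08% lower. In TSPCs-56d as compared to TSPCs-7d, 0 of 10 were higher and 0 lower (all genes: 1.72% and 2.10%). In TSPCs-56d as compared to TSPCs-1d, 1 was higher and 0 were lower (all genes: 2.00% and 1.77%). The median log2 ratio of the 10 genes was -0.06, 0.10 and 0.04 in these comparisons, and that of all genes was 0.01, 0.05 and 0.06.

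With 1 array per age there is no spread between cultures. As a guide to the noise of a single probe set, 1280 genes with exactly 2 probe sets, each above the median of mean signal, were used. In 10% of these genes the log2 ratios of the pair differed by more than 0.38 for TSPCs-7d over TSPCs-1d, 0.43 for TSPCs-56d over TSPCs-7d and 0.50 for TSPCs-56d over TSPCs-1d. This guide covers differences within the same arrays and not those between cultures. The share of all genes with a ratio outside the guide was not counted, so lying outside it does not mark a gene as unusual. The median absolute log2 ratio of all genes was 0.17, 0.20 and 0.21 in the same order of comparisons. In bulk RNA, fewer cells that express a gene and less RNA per cell cannot be told apart.

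**Figure D1:**
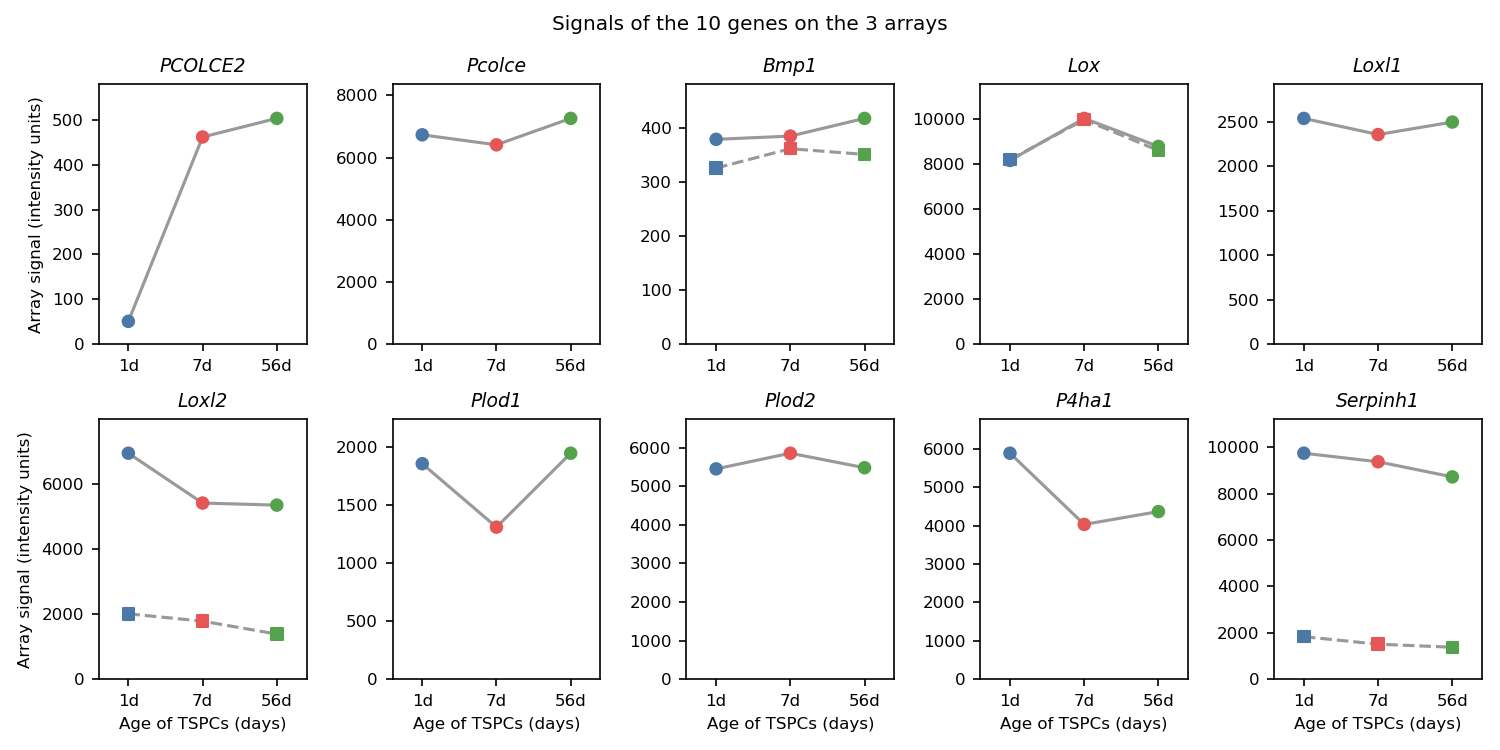
Array signal (intensity units, linear axes from 0) of the 10 genes at each age, with 1 point per array, circles for the brightest probe set and squares on dashed lines for a weaker one. *PCOLCE2* is low at 1 day (51.0) and higher at 7 days (462) and 56 days (503), and the other genes stay near 1 level.

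*PCOLCE2* was the gene with the clear difference, and nearly all of it lay between the newborn and the 7 day culture. Its single probe set had a signal of 51.0 at 1 day, 462 at 7 days and 503 at 56 days. Compared to TSPCs-1d, it was 9.05-fold higher in TSPCs-7d and 9.87-fold higher in TSPCs-56d, whereas the ratio of TSPCs-56d over TSPCs-7d was 1.09. Both older cultures are far from TSPCs-1d and lie within the noise guide of each other, and both ratios rest on the same TSPCs-1d array. The ratio of TSPCs-7d over TSPCs-1d ranked 1 of 14216 genes, and that of TSPCs-56d over TSPCs-1d ranked 9. These ranks belong to the values that drew attention to the gene.

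The size of the fold change rests on a faint signal. The value of 51.0 lay at percentile 26.8 of the signals of its array, just over the 25th percentile of all signals (48.9), and detection calls were not analysed here. In TSPCs-7d and TSPCs-56d the same probe set lay at percentiles 79.8 and 81.6. Among 2408 probe sets whose signal in TSPCs-1d was within 1.25-fold of that of *PCOLCE2*, 25 had a ratio of TSPCs-7d over TSPCs-1d above 2, *PCOLCE2* among them. When every signal under the median of all signals (110.1) was raised to that level, the ratios over TSPCs-1d were 4.19 for TSPCs-7d and 4.57 for TSPCs-56d.

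*Pcolce*, the paralogue that encodes the other enhancer of the same protease, did not share this difference. It had signals of 6733 at 1 day, 6411 at 7 days and 7261 at 56 days, with log2 ratios of -0.07, 0.18 and 0.11 for TSPCs-7d over TSPCs-1d, TSPCs-56d over TSPCs-7d and TSPCs-56d over TSPCs-1d. All of these lie inside the noise guide. The RefSeq promoter windows of the pair (250 bases before to 50 after the gene's start, build GRCr8) are shown because the paralogues differ on the arrays, with every CpG in capitals.
PCOLCE2, chr8:105072836-105073135, + strand: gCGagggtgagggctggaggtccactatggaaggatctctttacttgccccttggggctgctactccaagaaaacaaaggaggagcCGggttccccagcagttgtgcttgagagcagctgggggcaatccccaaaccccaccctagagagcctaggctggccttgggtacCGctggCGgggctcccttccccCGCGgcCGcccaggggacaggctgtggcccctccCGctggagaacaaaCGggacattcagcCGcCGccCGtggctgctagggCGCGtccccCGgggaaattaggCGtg
Pcolce, chr12:24720722-24721021, + strand: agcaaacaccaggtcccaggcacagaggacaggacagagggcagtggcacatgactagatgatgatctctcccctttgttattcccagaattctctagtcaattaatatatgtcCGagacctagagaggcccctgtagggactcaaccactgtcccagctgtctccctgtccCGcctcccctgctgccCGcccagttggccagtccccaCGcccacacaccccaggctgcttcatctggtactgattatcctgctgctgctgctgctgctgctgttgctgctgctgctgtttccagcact
The window of *PCOLCE2* holds 16 CpGs and that of *Pcolce* 4, where the median of 33469 RefSeq promoter windows of the same length is 7. G and C make up 65.7% of the bases for *PCOLCE2* and 56.7% for *Pcolce* (median of all windows 51.7%). The GC box letters GGGCGG were found on either strand at 2 positions in *PCOLCE2* and 1 in *Pcolce*, and 33.1% of all windows hold them. TATAAA, which is in 14.2% of all windows, was found in neither. These are descriptions of the letters in the windows, and nothing was measured on these promoters.

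The nearest measured genes beside *PCOLCE2* on chromosome 8 stayed within 2-fold in every comparison, though some moved in its direction. The protein-coding genes on one side, *Paqr9*, *U2surp* and *Chst2*, had log2 ratios of 0.05, 0.19 and 0.03 in TSPCs-7d over TSPCs-1d. *Chst2* had signals of 157, 160 and 239, with a log2 ratio of 0.61 in TSPCs-56d over TSPCs-1d, outside the noise guide of 0.50. Those on the other side, *Trpc1*, *Pls1* and *Atr*, had -0.18, 0.59 and 0.85, of which *Pls1* was faint (18.4, 27.6 and 24.1 at 1, 7 and 56 days). *Atr*, a kinase of the DNA damage response, had signals of 193, 348 and 228, so it was highest at 7 days and, unlike *PCOLCE2*, lower again at 56 days, within 2-fold throughout. *Plod2* and *Loxl1*, which are on the same chromosome, had 0.10 and -0.11 in TSPCs-7d over TSPCs-1d.

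Few genes had a pair of ratios over TSPCs-1d close to that of *PCOLCE2*. Likeness was measured as the distance between the pairs of log2 ratios over TSPCs-1d, in 3 cultures and among 9382 genes above the median of mean signal. This distance counts the size of the ratios as well as their shape. The ratios of *PCOLCE2* were among the largest of all genes and rest on its faint signal in TSPCs-1d. That few genes lie near it therefore follows largely from their size. Within a distance of 0.1 there were 0 genes, and within 1 there were 2. Of the 5 nearest, *Itgbl1* and *Ccn5* rose further between the older cultures. Their ratios of TSPCs-56d over TSPCs-7d were 1.44 and 1.65, where that of *PCOLCE2* was 1.09. The nearest was *Itgbl1*, an integrin beta-like gene, at a distance of 0.30, with signals of 57.6, 434 and 626 at 1, 7 and 56 days. The matrix protease gene *Mmp3* followed at 1.00, with 332, 1930.1 and 1926. *Ccn5*, which encodes a matricellular protein of the CCN family, had 450, 2060.3 and 3406 (distance 1.06). The prostaglandin transporter gene *Slco2a1* had 334, 1894 and 1616 (1.23), and its weaker probe set 45.0, 140 and 113. *Palmd* had 146, 702 and 749 (1.31), but its other 3 probe sets were less apart, for example 194, 232 and 338 in one of them.

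**Figure D2:**
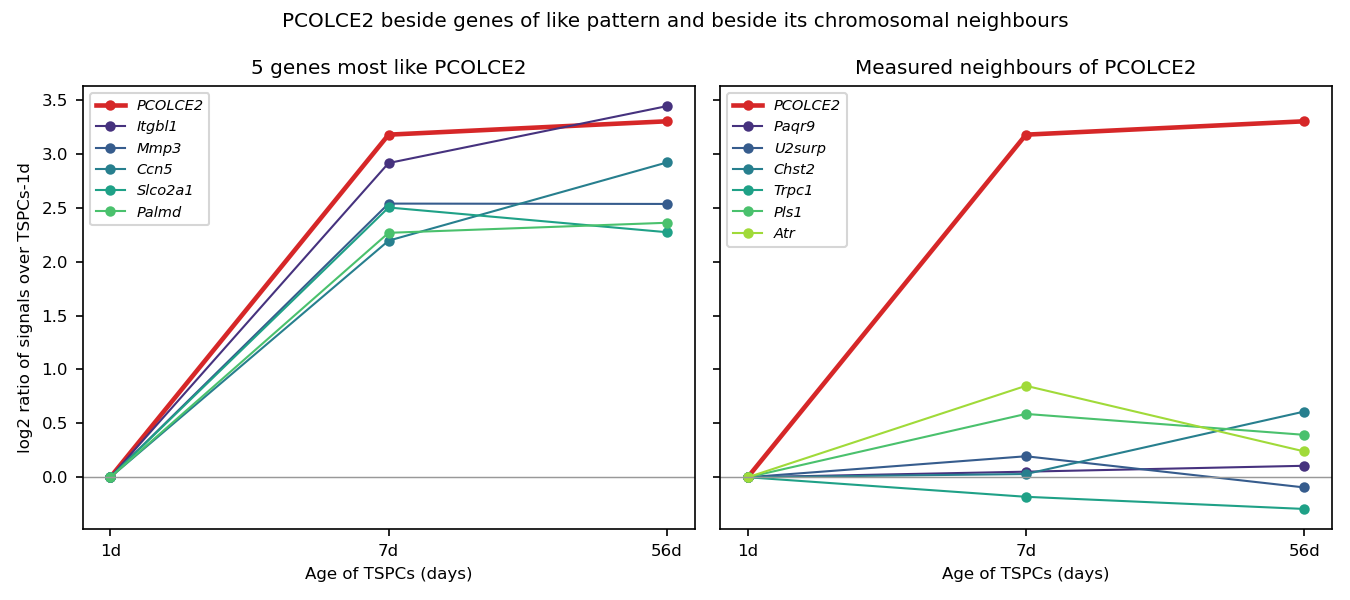
Log2 ratio of signals over TSPCs-1d at each age, for *PCOLCE2* (red) with the 5 genes of most like pattern (left) and with the 6 nearest measured genes on chromosome 8 (right), 1 point per array. *PCOLCE2* stands at 3.18 in TSPCs-7d and 3.30 in TSPCs-56d, *Itgbl1* is the nearest to it, and the highest of the chromosomal neighbours in TSPCs-7d is *Atr* at 0.85.

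*Bmp1* encodes the C-proteinase that both enhancers act on, and its log2 ratios lay inside the noise guide in both probe sets. The brighter one had signals of 379 at 1 day, 385 at 7 days and 418 at 56 days, and the weaker one 326, 361 and 351. They differ in which older culture is the highest, and the widest span of either was 1.11-fold. A related list of propeptide proteases and their activating convertases had 5 of 10 genes measured, with 0 past 2-fold in any comparison. *Pcsk5*, a proprotein convertase, had 306, 394 and 267, and *Furin*, another convertase, had 290.4, 330 and 359. *Tll1*, *Tll2*, *Adamts2*, *Adamts3* and *Adamts14*, the genes that complete this list, had no single-gene probe set and were not analysed here.

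The lysyl oxidases, which begin the cross-links, passed 2-fold in no comparison. *Lox*, the founding member, had signals of 8155 at 1 day, 10020.2 at 7 days and 8776 at 56 days, and 8192, 9963 and 8595 in its other probe set. The highest was TSPCs-7d in both, by 1.23-fold and 1.22-fold over TSPCs-1d, which is inside the noise guide. *Loxl1*, whose product also acts on elastic fibres, had 2540.1, 2358 and 2499, and no pair of its arrays differed beyond the guide. *Loxl2*, which encodes an oxidase with scavenger receptor domains, was highest in TSPCs-1d in both probe sets. The brighter one had 6942, 5409.8 and 5347, with a log2 ratio of -0.38 in TSPCs-56d over TSPCs-1d. The weaker one had 2006, 1779.6 and 1384, with -0.54, just past the guide of 0.50.

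By pattern, the genes nearest to *Lox* were *Nop9*, *Nfyc*, *Ccdc167*, *Kptn* and *Marcks*, all at distances under 0.02. As many as 251 genes lay within 0.1 of it, so such small ratios do not single out a group. Of 10 listed cross-linking partners, copper carriers and scaffolds, 9 were measured. Among them, *Tgm2*, which encodes a transglutaminase that joins matrix proteins by another kind of bond, had signals of 131, 110 and 322, so TSPCs-56d was 2.93-fold higher than TSPCs-7d and 2.46-fold higher than TSPCs-1d. Its weaker probe set was faint, with 30.8, 45.9 and 48.7, and ratios of 1.06 and 1.58. The other 8 did not pass 2-fold in any comparison.

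The lysyl hydroxylases split in their pattern. *Plod1*, which acts on lysines of the helix, had signals of 1859 at 1 day, 1311 at 7 days and 1949 at 56 days. It was lowest in TSPCs-7d, with log2 ratios of -0.50 for TSPCs-7d over TSPCs-1d and 0.57 for TSPCs-56d over TSPCs-7d, both outside the noise guide and under 2-fold. *Plod2*, which acts on lysines of the telopeptides, from which the stable cross-links of tendon are built, had 5449, 5855 and 5479, so its lowest and highest arrays were 1.07-fold apart. In a list of 7 partners of lysyl hydroxylation, 0 passed 2-fold in any comparison. This list includes *Plod3*, the gene of another lysyl hydroxylase, with 1929.8, 2250.2 and 2403, named after its values were seen. The median log2 ratio of the list was 0.21 in TSPCs-7d over TSPCs-1d and 0.31 in TSPCs-56d over TSPCs-1d, against 0.01 and 0.06 for all genes. In the comparison of TSPCs-56d with TSPCs-1d, 1 of 7 was below 0, where 42.0% of all genes were. The log2 ratios of the 7 lay between -0.13 and 0.48 there, all inside the noise guide of 0.50. For TSPCs-7d over TSPCs-1d, 3 of 7 were below 0 (all genes: 47.6%), and for TSPCs-56d over TSPCs-7d, 2 of 7 (all genes: 43.3%). *Fkbp10*, a foldase that works with *Plod2*, had 2762, 3399 and 3395, and *Ppib*, which encodes cyclophilin B, had 7956, 7849 and 7249.

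*P4ha1*, which encodes a catalytic subunit of collagen prolyl hydroxylase, was highest in TSPCs-1d. The signals were 5894 at 1 day, 4036 at 7 days and 4371 at 56 days. The log2 ratio of TSPCs-7d over TSPCs-1d was -0.55, outside the guide, and that of TSPCs-56d over TSPCs-1d was -0.43, inside it. The related subunit gene *P4ha2* behaved otherwise, with 1240.4, 996 and 2657, so TSPCs-56d was 2.67-fold higher than TSPCs-7d and 2.14-fold higher than TSPCs-1d. Its weaker probe set did not reach the cutoff (330, 277 and 397, with ratios of 1.43 and 1.20). It was the 1 gene past 2-fold among 5 measured partners of prolyl hydroxylation.

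*P4ha1*, *Plod2* and *Lox* are known targets of the hypoxia-inducible factor, whose binding sites hold the letters ACGTG or GCGTG. A list of 11 hypoxia response genes is therefore set beside them. In TSPCs-7d over TSPCs-1d, 10 of the 11 had a log2 ratio below 0 and 0 passed 2-fold, with a median of -0.20, where 47.6% of all genes were below 0 and their median was 0.01. In TSPCs-56d over TSPCs-7d, 10 were above 0 and 1 below, where 43.3% of all genes were below 0. The median of the list was 0.26, against 0.05 for all genes. Only *Adm* (1.66) and *Bnip3* (0.92) lay outside the noise guide of 0.43 in that comparison. As both comparisons use the TSPCs-7d array, they are not independent. *Bnip3*, a mitophagy gene, had signals of 1904, 1117 and 2117, and the lactate dehydrogenase gene *Ldha* 6907, 5143 and 6594, both named after their values were seen. *Adm*, which encodes adrenomedullin, had 117.5, 110.4 and 349, so TSPCs-56d was 3.17-fold higher than TSPCs-7d and 2.97-fold higher than TSPCs-1d. Of the 10 genes, *Plod1*, *P4ha1*, *Pcolce* and *Loxl1* were lowest in TSPCs-7d, and *Plod2* and *Lox* were highest there. The share of all genes with either order was not counted, so this is a description and no result about the 10 genes. *Plod1* and *P4ha1* were each read by a single probe set, with no second reading to compare. Only *Plod1* differed from both other ages by more than the noise guide. *P4ha1* did so against TSPCs-1d alone, with a log2 ratio of 0.12 for TSPCs-56d over TSPCs-7d. *Pcolce*, *Loxl1*, *Plod2* and *Lox* stayed inside the guide in both comparisons. Whether these differences share a cause was not tested.

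The promoter windows of *P4ha1* and *Plod2* are shown because both hold these letters while their signals differ, with ACGTG and GCGTG on either strand in capitals (CACGT and CACGC where the match is on the other strand).
P4ha1, chr20:27844796-27845095, + strand: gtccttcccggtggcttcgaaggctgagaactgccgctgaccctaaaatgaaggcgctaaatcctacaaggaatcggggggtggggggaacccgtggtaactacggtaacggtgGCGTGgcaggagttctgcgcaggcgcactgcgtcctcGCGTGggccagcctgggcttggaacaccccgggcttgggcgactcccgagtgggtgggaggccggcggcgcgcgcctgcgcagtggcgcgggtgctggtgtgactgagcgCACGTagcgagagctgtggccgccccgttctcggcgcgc
Plod2, chr8:101964068-101964367, + strand: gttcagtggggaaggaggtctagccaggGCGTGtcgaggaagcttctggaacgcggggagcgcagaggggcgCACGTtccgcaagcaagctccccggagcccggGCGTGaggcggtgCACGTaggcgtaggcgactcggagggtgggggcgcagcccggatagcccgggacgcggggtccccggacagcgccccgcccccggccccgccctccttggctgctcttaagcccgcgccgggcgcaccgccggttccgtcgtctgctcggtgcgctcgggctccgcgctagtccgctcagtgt
There were 3 matches for *P4ha1* and 4 for *Plod2*, and 41.6% of all windows hold at least 1. The stricter ACGTG, which 19.3% of windows hold, was found at 1 position in *P4ha1* and 2 in *Plod2*. *Plod1*, *PCOLCE2* and *Pcolce* had 1 match each, to GCGTG, and *Loxl1* and *Serpinh1* had 0. The window given for *P4ha1* lies inside the span that RefSeq gives the gene and not at its outer end. No match was tested as a site.

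*Serpinh1* encodes the collagen chaperone of the endoplasmic reticulum. Its brighter probe set, which the array's naming marks as shared between transcripts, had signals of 9753 at 1 day, 9383 at 7 days and 8731 at 56 days. The weaker one had 1831, 1507 and 1376. Both were highest in TSPCs-1d and lowest in TSPCs-56d, by 1.12-fold and 1.33-fold, and every log2 ratio was inside the noise guide. Of 12 listed chaperone and export genes, 11 were measured and 0 passed 2-fold in any comparison. The collagen-binding protein gene *Sparc* had 16275, 15548 and 16163, and the chaperone gene *Hsp90b1* had 6811, 7823 and 6825.

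**Figure D3:**
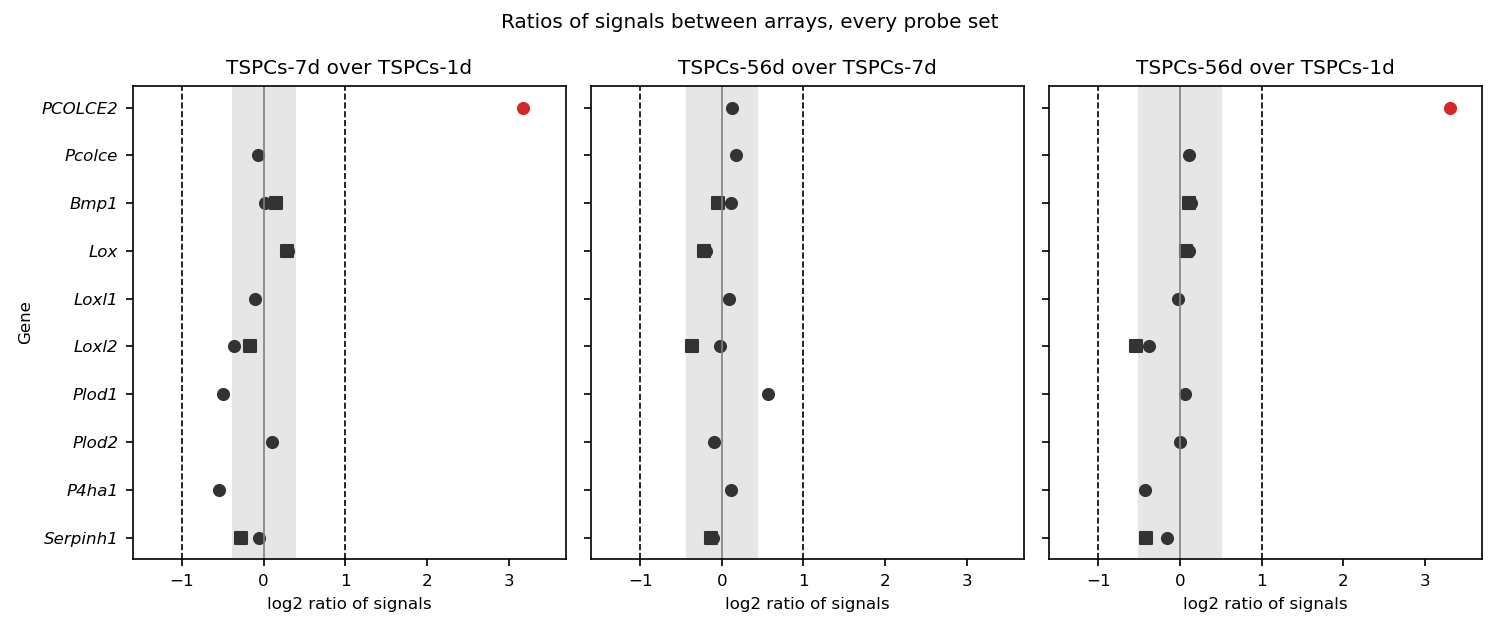
Log2 ratio of signals for every probe set of the 10 genes in the 3 comparisons of arrays, with circles for the brightest probe set, squares for a weaker one, dashed lines at 2-fold and a grey band for the noise guide (0.38, 0.43 and 0.50). *PCOLCE2* (red) passes 2-fold in both comparisons with TSPCs-1d, while *Plod1* and *P4ha1* lie just outside the band in TSPCs-7d over TSPCs-1d.

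The substrates of these enzymes were compared last. Of 13 fibril-forming and fibril-associated collagen genes, 1 passed 2-fold upward for TSPCs-7d over TSPCs-1d (all genes: 1.87%). Downward, 2 passed it for TSPCs-56d over TSPCs-7d (all genes: 2.10%). *Col14a1*, which encodes a collagen of the fibril surface, had signals of 765, 3702 and 522, with a ratio of 4.84 for TSPCs-7d over TSPCs-1d and 0.141 for TSPCs-56d over TSPCs-7d. *Col11a1*, a chain of the fibril core, had 2257, 3814 and 1799.7, with a ratio of 0.472 for TSPCs-56d over TSPCs-7d, and its other 2 probe sets had 0.490 and 0.390. The main chains *Col1a1*, *Col1a2* and *Col3a1*, named after their values were seen, had log2 ratios between -0.04 and 0.05 in all comparisons. *Col1a2* was the brightest probe set on all 3 arrays, and whether such signals were saturated was not tested. *PCOLCE2* was high in both older cultures, whereas *Col14a1* was high in TSPCs-7d alone. Over all 6 lists of the pathway, 50 of 58 genes were measured. Of these, 1 was higher and 0 lower in TSPCs-7d over TSPCs-1d (all genes: 1.87% and 1.08%). There were 2 and 2 in TSPCs-56d over TSPCs-7d (all genes: 1.72% and 2.10%). For TSPCs-56d over TSPCs-1d there were 2 and 0 (all genes: 2.00% and 1.77%). The median log2 ratios of the 50 genes were 0.03, 0.01 and 0.02, against 0.01, 0.05 and 0.06 for all genes.

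**Figure D4:**
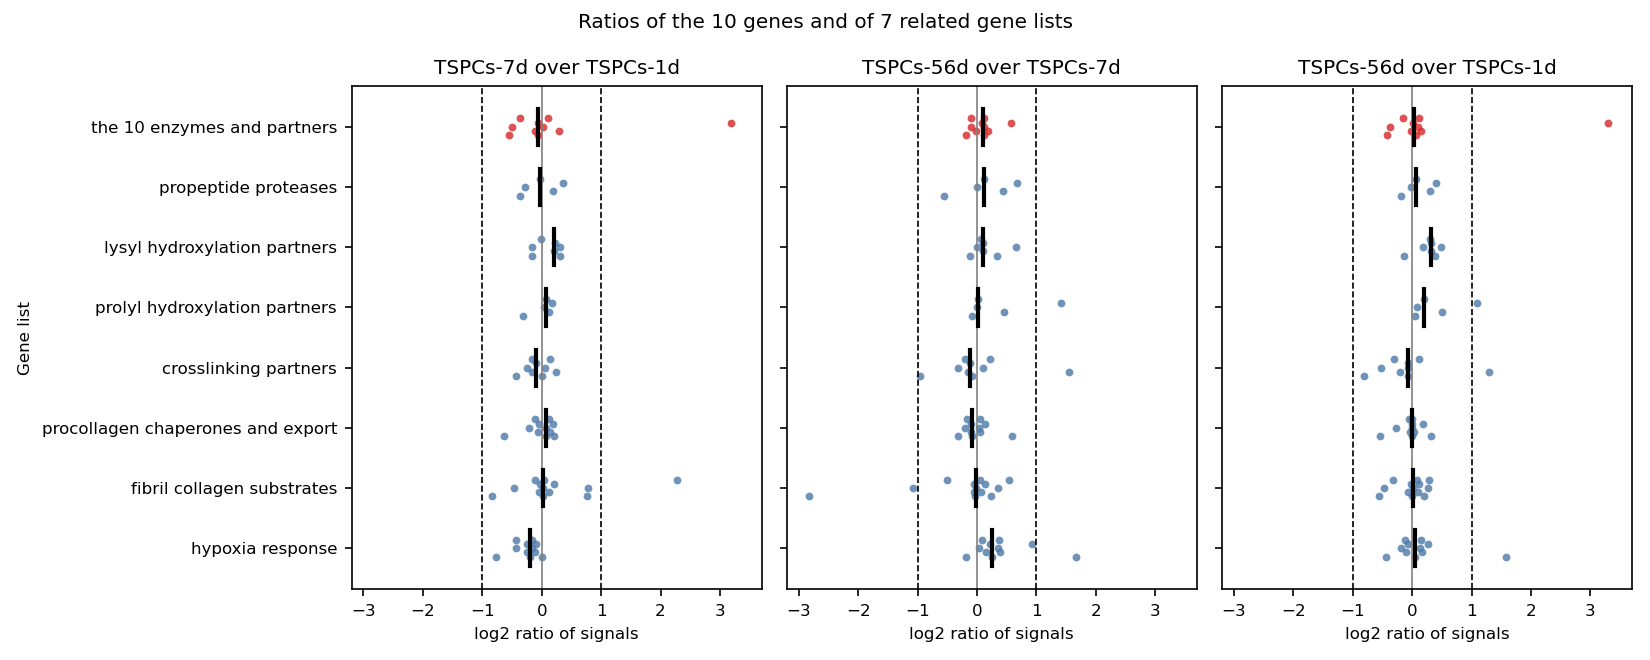
Log2 ratio of signals in the 3 comparisons for the 10 genes (red) and for 7 related lists (blue), 1 point per gene, with a black bar at each median and dashed lines at 2-fold. The medians of the 10 genes lie at -0.06, 0.10 and 0.04, and the points past 2-fold are *PCOLCE2*, *Col14a1*, *Col11a1*, *P4ha2*, *Tgm2* and *Adm*.

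The arrays were checked against the labelled cell type. *Scx*, a transcription factor of tendon cells, had signals of 2255 at 1 day, 2578 at 7 days and 2569 at 56 days, and the surface marker genes *Itgb1*, *Cd44* and *Thy1* were over the median on every array. *Nt5e*, another of the 5 mesenchymal markers, was below the median of each array (41.9, 49.3 and 110.2), with a ratio of 2.24 for TSPCs-56d over TSPCs-7d. The 5 summed to 15895, 15986 and 18779. *Ptprc*, which marks blood cells, lay under the 25th percentile throughout, as did 2 of the 4 haematopoietic markers in all, while *Cd68* (122, 109 and 143) and *Cd14* (162, 157 and 155) were over the median of each array. The 4 summed to 340.4, 323 and 362. The 3 endothelial markers summed to 176, 173 and 187. Among the tendon markers *Thbs4*, a thrombospondin of the tendon matrix, moved with *PCOLCE2* (76.5, 340 and 348), and *Tnmd*, which encodes tenomodulin, went the other way (543, 351 and 158). The 5 measured tendon markers summed to 8426, 11344 and 14668, most of it *Tnc*, the tenascin C gene (5280.4, 7302 and 11185), and *Fmod*, which encodes fibromodulin, had 271, 774 and 408. Of the 5, 2 were past 2-fold higher and 0 lower for TSPCs-7d over TSPCs-1d (all genes: 1.87% and 1.08%). There were 0 and 1 for TSPCs-56d over TSPCs-7d (all genes: 1.72% and 2.10%). For TSPCs-56d over TSPCs-1d there were 2 and 1 (all genes: 2.00% and 1.77%). The part of the tendon markers in the difference of *PCOLCE2* was not tested. Of the other tissues, the muscle gene *Acta1* (1772, 855 and 5327) and the cartilage gene *Acan* (8588, 8224 and 2874) varied, while *Myod1* and *Col9a1* lay under the 25th percentile on all arrays. The 4 muscle markers summed to 1887, 977 and 5473, the 3 of cartilage to 8734, 8364 and 3026, and the 2 of Schwann cells to 579.9, 593 and 1065. The medians of the arrays were 107, 108 and 114, and the correlation of their log2 signals over probe sets was between 0.976 and 0.985.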

How the data were processed

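Total RNA of TSPCs at passage 2 was hybridized to 3 arrays, 1 per age. The deposited values are probe set intensities on a linear scale, which the authors normalized and summarized with MAS5 and RMA according to the methods, and with MAS5 according to the submitters' processing notes. How both were combined is not stated. MAS5 summarizes each array by itself and is known to be noisy at faint signals. The 31042 probe sets were used without further scaling, and their precision is limited by the number of arrays.

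Genes were taken from the platform table (1 gene for 20826 probe sets, several for 436, none for 9780), matched without regard to case, and the brightest probe set by mean signal stood for a gene. Fold changes are ratios of signals of the older over the younger culture, with a cutoff of 2. No test was possible with 1 array per group. The calculation was tested on simulated data with little noise and planted changes well past the cutoff. This checks the calculation and not how reliable a call on these arrays is. The members, the 14 gene lists beside them and the rule for named genes were chosen with earlier results of these data known. That rule names all members, genes of the 6 pathway lists and of the hypoxia list past 2-fold with a mean signal above the median (111), otherwise up to 2 of the brightest of such a list, and the 5 genes of most like pattern to *PCOLCE2* and to *Lox*.

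Alternatives were scaling by the array median, quantile normalization, floors at the 25th percentile and the median, a pseudocount of 32, cutoffs of 1.5 and 3, the mean over probe sets, the lowest-signal probe set, and leaving out shared probe sets. Names and promoter sequences come from RefSeq (GRCr8), where all 10 members matched by gene ID and 7 had a promoter window. Python 3.11.15, numpy 2.4.6, pandas 2.3.3 and matplotlib 3.10.9 were used.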

Additional observations from a re-analysis of the deposited data

How the results depend on the processing

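The counts of the 10 genes past the cutoff were the same in every comparison and direction under all 10 alternatives: 1 higher in TSPCs-7d over TSPCs-1d and in TSPCs-56d over TSPCs-1d, and 0 elsewhere. The log2 ratios of the other 9 genes lay between -0.56 and 0.57 under the 8 alternatives that keep the cutoff. The floors could not move these genes, as all their signals lay above the median of all signals. The choice of probe set could not move a gene that has 1 probe set. For these genes such alternatives give the same ratio by construction. The ratio of *PCOLCE2* depended on how its faint signal in TSPCs-1d was treated. With a pseudocount of 32 it was 5.95 in TSPCs-7d over TSPCs-1d and 6.45 in TSPCs-56d over TSPCs-1d, and 4.19 and 4.57 when the floor was the median. Among the other pathway genes, the 1 higher and 0 lower in TSPCs-7d over TSPCs-1d became 3 and 2 at a cutoff of 1.5, and 2 were higher with the lowest-signal probe set. The 2 higher in TSPCs-56d over TSPCs-1d became 1 with the mean over probe sets, 1 with the lowest-signal probe set and 0 at 3-fold, and the 0 lower became 1 at a cutoff of 1.5. The 2 higher in TSPCs-56d over TSPCs-7d became 5 at a cutoff of 1.5 and 0 both with the lowest-signal probe set and at 3-fold, where the 2 lower became 1. These 2 became 3 at a cutoff of 1.5 and when each array was divided by its median. No paired analysis was possible because each age has 1 array. Without replicates, the spread between cultures is unknown.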

Other observations

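Differences past 2-fold seen in a single probe set of a gene were not always shared by its other probe sets. *P3h4*, which encodes a partner of the lysyl hydroxylases, has 5 probe sets. For TSPCs-56d over TSPCs-1d the ratio was 2.04 in the weakest (792 in TSPCs-56d and 389 in TSPCs-1d) and between 1.11 and 1.30 in the other 4. *Fbln5*, which encodes a fibulin of elastic fibres, had signals of 1798, 1988 and 1023 at 1, 7 and 56 days, just under the cutoff in TSPCs-56d over TSPCs-7d (log2 ratio -0.96). The copper exporter gene *Atp7a*, which supplies the lysyl oxidases, had 942, 697 and 654.5, while the copper chaperone gene *Atox1* had 1113, 1151 and 1061. These genes were named after their values were seen.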
